A study of Mus musculus with 8 samples.

Results

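The ductular and progenitor genes Krt7, Krt19, Sox9, Epcam, Spp1, Pkhd1, Cftr, Onecut1 and Bicc1 were followed in mouse liver nuclei. They were taken by symbol, and all 9 were found among the 32285 genes of the count matrices. Their unique molecular identifiers (UMIs, 1 per captured RNA molecule; levels are counts per 1000000 UMIs, CPM) were counted in nuclei with at least 300 detected genes, over whole libraries and inside and outside the nuclei with at least 2 UMIs of Pkhd1, here called Pkhd1 nuclei.

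The data are single-nucleus RNA-seq libraries of the livers of 8 male DIAMOND mice, 1 library per mouse, a cross labelled 129A1/SvIm and C57BL/6J whose livers become fatty and can form tumours on Western diet, a chow rich in fat and sugar. Mice labelled WD tumour (n = 3, the Western diet livers) stayed on that diet for 48 weeks and had hepatocellular carcinoma. Mice labelled RD tumour (n = 2, the reversed tumour livers) and RD no tumour (n = 3, the tumour-free livers) ate it for 36 weeks and then standard chow, and carcinoma was found in the former and not in the latter. All groups thus share the cross, the sex and at least 36 weeks of Western diet, and no group on chow throughout is analysed here. The labels give 48 weeks of age at the end, which disagrees with 48 weeks of diet begun at 2 months. They do not say whether the frozen piece held tumour, and they list the cell type only as all cells.

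Bile ducts are lined by cholangiocytes, which modify bile by moving chloride, bicarbonate and water. In chronic liver injury, duct-like cells can multiply or appear within the lobule, which is known as the ductular reaction, and some carry markers also used for progenitor cells. Notch and YAP signalling and the factors SOX9 and ONECUT1 (HNF6) take part in forming ducts from bipotent cells of the fetal liver. Several of the 9 genes are not private to ducts: Onecut1 is also a hepatocyte transcription factor, Spp1 (osteopontin, a secreted phosphoprotein) is also made by macrophages, and Sox9 and Krt19 mark some progenitor and tumour cells.

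The genes lie on 8 chromosomes of mouse build GRCm38 in GENCODE release M21, and all are protein-coding. Pkhd1 spans chr1:20057779-20618064 on the minus strand and is by far the longest at 560.3 kb. Bicc1 spans chr10:70922832-71159700 on the minus strand and Cftr chr6:18170687-18322768 on the plus strand. Onecut1 lies at chr9:74861921-74891781, Krt7 at chr15:101411043-101430313, Epcam at chr17:87635979-87651129 and Spp1 at chr5:104435118-104441050, all on the plus strand. Krt19 (chr11:100140810-100148665, minus strand) and Sox9 (chr11:112782224-112787760, plus strand) share a chromosome. Nuclear RNA holds introns, so UMI counts were not compared between genes of such different lengths. Every comparison below is of 1 gene between sets of nuclei or mice.

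RefSeq promoter entries of build GRCm38.p6 exist for 6 of the 9 genes in the table used here. The 250 bases before the start are shown 5′ to 3′ for Pkhd1, which defines the nuclei, and for 3 genes whose level was higher in those nuclei. Capitals mark matches, on either strand, to binding motifs of factors of these pathways and to the TATA box. The ONECUT core was searched as ATCGAT and, with its other middle base, as ATTGAT. For TEAD, the DNA-binding partner of YAP, the letters were GGAATG. For RBPJ, the DNA-binding partner of Notch, they were TGGGAA. The TATA box was searched as TATAAA.
Pkhd1, chr1:20618058-20618307, minus strand: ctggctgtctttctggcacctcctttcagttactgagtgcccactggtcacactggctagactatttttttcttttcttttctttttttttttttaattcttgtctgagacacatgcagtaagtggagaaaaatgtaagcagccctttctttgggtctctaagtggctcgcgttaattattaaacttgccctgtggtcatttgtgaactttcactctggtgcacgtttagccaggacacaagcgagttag
Cftr, chr6:18170437-18170686, plus strand: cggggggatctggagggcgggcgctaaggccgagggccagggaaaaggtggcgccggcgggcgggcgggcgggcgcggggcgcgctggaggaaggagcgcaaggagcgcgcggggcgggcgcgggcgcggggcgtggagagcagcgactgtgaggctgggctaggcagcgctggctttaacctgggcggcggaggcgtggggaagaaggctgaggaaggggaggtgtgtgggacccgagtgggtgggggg
Epcam, chr17:87635729-87635978, plus strand: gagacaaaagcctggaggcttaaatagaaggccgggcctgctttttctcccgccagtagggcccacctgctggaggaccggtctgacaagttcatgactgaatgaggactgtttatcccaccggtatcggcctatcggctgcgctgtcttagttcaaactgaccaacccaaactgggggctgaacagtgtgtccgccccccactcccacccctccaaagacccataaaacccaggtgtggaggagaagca
Spp1, chr5:104434861-104435110, plus strand, the first of 2 listed starts: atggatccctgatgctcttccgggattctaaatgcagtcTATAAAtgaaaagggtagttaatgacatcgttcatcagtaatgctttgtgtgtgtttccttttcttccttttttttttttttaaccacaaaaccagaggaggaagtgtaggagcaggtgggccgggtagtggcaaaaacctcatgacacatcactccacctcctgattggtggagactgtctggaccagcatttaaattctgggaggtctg

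The Spp1 window holds TATAAA, present in 12.4% of all 32851 promoter windows of this length, beginning 211 bases before the start. No other window of the 6 genes held any of the letters searched; the ONECUT, TEAD and RBPJ cores occur in 7.40%, 12.6% and 21.6% of all windows. A match describes letters and is not evidence of binding.

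Total counts per library lay between 17948627 (WD tumour 1) and 34363108 UMIs (RD tumour 1), over 6048 to 20000 nuclei and 79446 in all. Median depth was 1120 to 2656 UMIs per nucleus. The median mitochondrial share was 7.91% and 7.51% in WD tumour 1 and 3 and at most 3.28% in the other libraries. RD tumour 1 stood apart: it holds exactly 20000 barcodes, and its log2 profile correlated with the others at r = 0.855 to 0.916 across 22677 genes, while the other 7 libraries correlated at 0.948 or more with each other. RD tumour 2 carried RNA of pancreatic acinar cells, whose 8 marker genes summed to 373 CPM against at most 9.58 elsewhere. Pairs of libraries shared between 8 and 62 barcodes. Over all 8 mice the genes gave 170 UMIs of Krt7, 298 of Krt19, 315 of Cftr, 599 of Epcam, 1871 of Sox9, 8672 of Onecut1, 13446 of Spp1, 13967 of Pkhd1 and 17157 of Bicc1, so Krt7, Krt19 and Cftr were read at 6 to 129 UMIs per mouse.

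Pkhd1 nuclei were more frequent in the 3 livers kept on Western diet than in 4 of the 5 returned to chow. Pkhd1 encodes fibrocystin, a protein of the primary cilium of bile duct and kidney tubule cells. The nuclei numbered 2216 of 79446. They made up 7.74%, 4.46% and 5.67% of nuclei in WD tumour 1, 2 and 3. The shares were 0.105% and 1.56% in RD tumour 1 and 2, and 1.36%, 1.47% and 4.70% in RD no tumour 1, 2 and 3. Only RD no tumour 3 reached the Western diet range, and RD tumour 1 had 21 such nuclei. The group means were 5.96 ± 1.66% (SD, n = 3) in the Western diet livers, 0.833 ± 1.03% (SD, n = 2) in the reversed tumour livers and 2.51 ± 1.89% (SD, n = 3) in the tumour-free livers. The mean log2 share was 2.41 higher on Western diet than after reversal (two-sided exact permutation test, 3 against 5 mice, p = 0.0714, adjusted over 2 comparisons 0.143). The smallest p this design allows is 0.0357. The difference was 1.57 without RD tumour 1 (exact permutation p = 0.114, adjusted 0.171) and 1.53 with at least 1 Pkhd1 UMI (exact permutation p = 0.107, adjusted 0.214). Doublet removal gave 2.38 (exact permutation p = 0.0714, adjusted 0.143). It was 2.74 with at least 3 Pkhd1 UMIs, 2.62 with at least 500 genes and 3.09 with at most 5% mitochondrial UMIs (exact permutation p = 0.0357, adjusted 0.0714 each). The mitochondrial limit left out 4173 of the 6457 nuclei of WD tumour 1. Tumour-bearing and tumour-free livers differed by -0.08 (exact permutation test, p = 0.857), with the sign depending on the setting.

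Cholangiocyte markers were found in only part of the Pkhd1 nuclei, so the set is called by its rule. Of the 2216, 749 (33.8%) also held UMIs of at least 2 of 10 cholangiocyte-list genes (among them Glis3, Prom1, Cldn7, Elf3, Ehf, Dcdc2a, Sctr and St14). Per mouse this share was 34.2%, 37.1% and 35.2% in the Western diet livers, 4.76% and 67.9% in the reversed tumour livers, and 34.3%, 53.9% and 15.8% in the tumour-free livers. In nuclei with the duct markers, which were chosen by these 10 genes, the 10 together stood at 428 to 1813 CPM. In Pkhd1 nuclei without them they stood at 43.3 to 327, against 56.8 to 124 in all other nuclei. The choice itself sets the first range high and the second low, so these ranges describe the split and are not a result. The nuclei without duct markers were deep, with a median of 3699 to 6949 UMIs in the 6 mice other than the RD tumour pair. The hepatocyte list was present in both kinds at 8856 to 24729 CPM, with all 8 genes detected except in the single nucleus with duct markers of RD tumour 1. In the other nuclei the list stood at 11190 to 27833 CPM, so its presence was not particular to Pkhd1 nuclei.

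Counting only Pkhd1 nuclei with duct markers, a criterion chosen after the data were seen, the shares were 2.65%, 1.66% and 1.99% in the Western diet livers, 0.005% and 1.06% in the reversed tumour livers, and 0.467%, 0.794% and 0.744% in the tumour-free livers. All 3 Western diet livers then lay above all 5 reversed livers (log2 difference 2.93, exact permutation p = 0.0357, adjusted 0.0714). The size of that difference rests on the 1 such nucleus of RD tumour 1: without that library, a step also chosen after the data were seen, it was 1.49 (exact permutation p = 0.0571, the smallest that 3 against 4 mice allow). The Pkhd1 nuclei without duct markers differed by 2.52 (exact permutation p = 0.107, adjusted 0.214), and 1 of 3 Western diet livers lay above all 5 reversed livers. Depth bears on the plain gate, since Pkhd1 nuclei had a median of 1941 to 6693 UMIs and other nuclei 1106.5 to 2660. With every nucleus thinned to 500 UMIs and none left out, the shares were 1.83%, 0.608% and 1.53% in the Western diet livers, 0.01% and 0.482% in the reversed tumour livers, and 0.321%, 0.347% and 0.309% in the tumour-free livers. The thinned Western diet shares again lay above all others (log2 difference 2.77, exact permutation p = 0.0357, adjusted 0.0714), and without RD tumour 1, which holds 2 of these nuclei, the difference was 1.73 (exact permutation p = 0.0571). Without that library the 4 tumour-bearing livers also lay above the 3 tumour-free livers, by 1.42 with duct markers and 1.55 after thinning (exact permutation p = 0.0571 each), so both orderings hold in these 7 mice. RD tumour 2 is then the only reversed tumour liver. The pancreatic acinar list stood at 295 CPM in its Pkhd1 nuclei, and the part of pancreatic nuclei in its shares was not tested. The 3 tumour-free livers fell within 0.309% to 0.347% once depth was equal. Among nuclei with 0 or 1 Pkhd1 UMI and macrophage markers, 2.80% to 12.4% held 1 Pkhd1 UMI, at a median depth of 2188 to 3852 UMIs. The highest shares were in RD no tumour 3 (12.4%), WD tumour 3 (11.3%) and WD tumour 1 (10.8%). Nuclei with at least 2 Pkhd1 UMIs were not sorted by these markers. The shares thus show stray Pkhd1 UMIs in nuclei of another kind and give no background rate for the Pkhd1 gate itself.

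**Figure D1:**
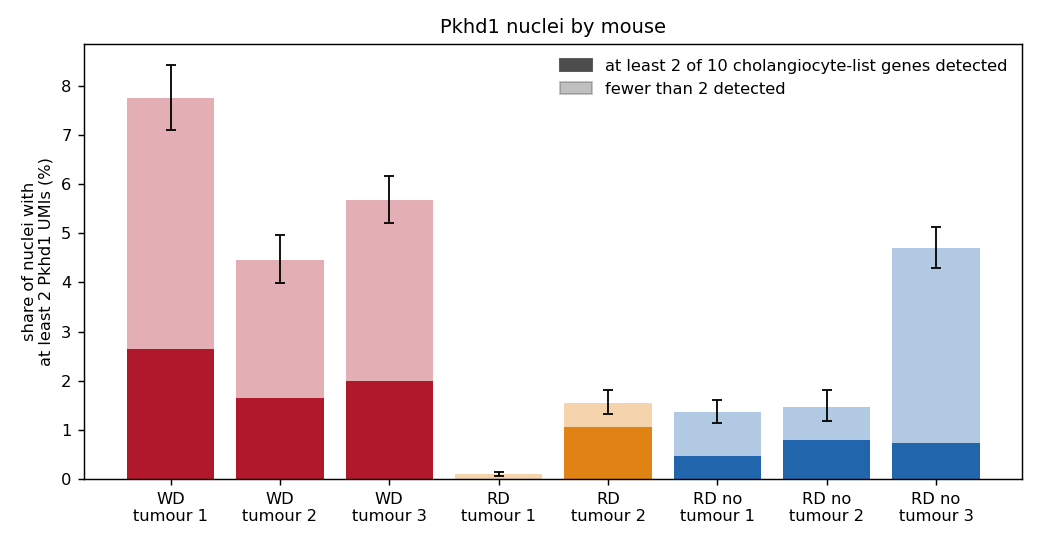
Share of nuclei with at least 2 Pkhd1 UMIs in each mouse, in percent, split into nuclei with at least 2 of 10 cholangiocyte-list genes (dark) and fewer (pale); error bars are exact 95% binomial intervals of the whole bar and cover counting error only. The dark part reached 1.66% to 2.65% in the Western diet livers and at most 1.06% in the reversed livers, while RD no tumour 3 reached 4.70% mostly through the pale part.

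Of the 9 genes, 7 could be tested between Pkhd1 nuclei and the other nuclei of the same mouse, and all 7 were higher in Pkhd1 nuclei. Cftr, the chloride channel of the duct surface, rose most, by 3.94 on the log2 scale (SE 0.25). Epcam, a cell adhesion molecule of simple epithelia, rose by 2.82 (SE 0.35), Krt19, a keratin of duct cells, by 2.38 (SE 0.30) and Spp1 by 2.30 (SE 0.28). Bicc1, an RNA-binding protein whose loss gives cystic kidneys and ducts, rose by 1.71 (SE 0.13). The 2 transcription factors rose least, Sox9 by 1.21 (SE 0.17) and Onecut1 by 1.09 (SE 0.08). The test was edgeR's quasi-likelihood F test with a term for the library, and the 7 Benjamini-Hochberg adjusted p-values over 15722 genes ran from 1.98e-11 (Cftr) to 2.95e-06 (Sox9). In this comparison 26.3% of all genes tested were called and 9.58% were called higher. Krt7 did not pass the filter on low counts, and Pkhd1, which chose the nuclei, was not tested. That filter was applied to the inside and outside sums together. A gene scarce outside, such as Cftr (0.281 to 1.25 CPM), thus entered the test through its level inside. The count of 7 higher out of 7 is therefore partly set by the filter, which also served the gene lists below.

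The size of these differences depends on how strictly the nuclei are chosen. With at least 1 Pkhd1 UMI the differences ranged from 0.63 (Sox9) to 2.77 (Cftr), with at least 3 from 1.19 (Onecut1) to 4.24 (Cftr), and with duct markers from 1.36 (Onecut1) to 4.80 (Cftr). All stayed below an adjusted p of 0.05 by edgeR. Mice with under 20 such nuclei were left out. The stricter settings thus also lack RD tumour 1, which had 6 nuclei with at least 3 UMIs and 1 with duct markers. Without the library term, Krt19 (adjusted p = 0.212), Sox9 (0.151) and Spp1 (0.0712) were no longer called, again by edgeR. Nuclei just outside the gate, with exactly 1 Pkhd1 UMI, held Cftr at 0 to 2.67 CPM, and those just inside, with exactly 2, at 0 to 8.86. Bicc1 stood at 16.6 to 94.3 just outside and 20.9 to 209 just inside.

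The values by mouse show how few molecules carry some of these differences. Cftr inside stood at 17.9, 6.14 and 19.4 CPM in WD tumour 1 to 3, 14.0 in RD tumour 2 and 12.7, 9.20 and 3.06 in RD no tumour 1 to 3. Outside it was between 0.281 and 1.25 in every mouse, so the ranges did not overlap in these 7 mice. In RD tumour 1 no Cftr, Krt7 or Krt19 UMI was found inside, but with 47338 UMIs in its 21 nuclei a count of 0 allows up to 63.4 CPM (3 counts), so nothing can be read from it.

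Epcam inside was 12.3, 4.70 and 10.3 CPM in the Western diet livers, 63.4 (3 UMIs) and 19.4 in the reversed tumour livers and 18.4, 62.1 and 3.93 in the tumour-free livers. It was higher inside than outside in 8 of 8 mice, and the 3 Western diet livers lay below 4 of the 5 others. Krt19 inside stood at 22.7 in RD tumour 2 (34 UMIs), with 1.40 and 1.08 in WD tumour 1 and 2 and 4.24, 6.90 and 1.09 in the tumour-free livers, each from 3 to 5 UMIs, and WD tumour 3, with 13 UMIs, lay within the latter range. The pancreatic acinar list stood at 295 CPM in the Pkhd1 nuclei of RD tumour 2, against at most 9.20 in those of the other mice. Without the nuclei holding 3 or more pancreatic UMIs, a step chosen after the data were seen, Krt19 inside differed by 3.20 on the log2 scale between RD tumour and RD no tumour, against 2.43 with them. Because the list holds acinar genes only, this step cannot remove pancreatic nuclei of other kinds. Krt7, the second duct keratin, was higher inside in 7 of 8 mice, at 2.83, 9.20 and 0.874 in the tumour-free livers, 3.34 in RD tumour 2 and 3.36, 3.61 and 2.26 in the Western diet livers, from 44 UMIs in all.

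Spp1 inside was 175, 179 and 271 CPM in the Western diet livers, 169 and 86.2 in the reversed tumour livers, and 621, 773 and 58.6 in the tumour-free livers. The tumour-free group thus holds both the highest and the lowest values. In the subset with duct markers the spread widened: Spp1 was 1929, 1184 and 212 in the tumour-free livers, 356, 349 and 606 in the Western diet livers and 71.9 in RD tumour 2, and the corresponding nucleus of RD tumour 1 gave 1 UMI. Bicc1 in the same subset was 780, 558 and 182 in the tumour-free livers, 625, 582 and 808 in the Western diet livers and 219 in RD tumour 2.

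Sox9 inside was 12.6, 9.03 and 19.4 CPM in the Western diet livers, 42.2 (2 UMIs) and 20.1 in the reversed tumour livers, and 21.2, 41.4 and 10.3 in the tumour-free livers, against 3.39 to 13.7 outside. Onecut1 inside ran from 40.0 (RD no tumour 3) to 132 (RD no tumour 1), against 17.6 to 56.8 outside. Both were higher inside in 8 of 8 mice, although a median of only 17.7% of Sox9 UMIs and 17.4% of Onecut1 UMIs of a library came from Pkhd1 nuclei. For Cftr that median was 55.6%, for Epcam 36.0%, for Spp1 33.5%, for Krt7 32.4%, for Krt19 31.5% and for Bicc1 21.7%.

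**Figure D2:**
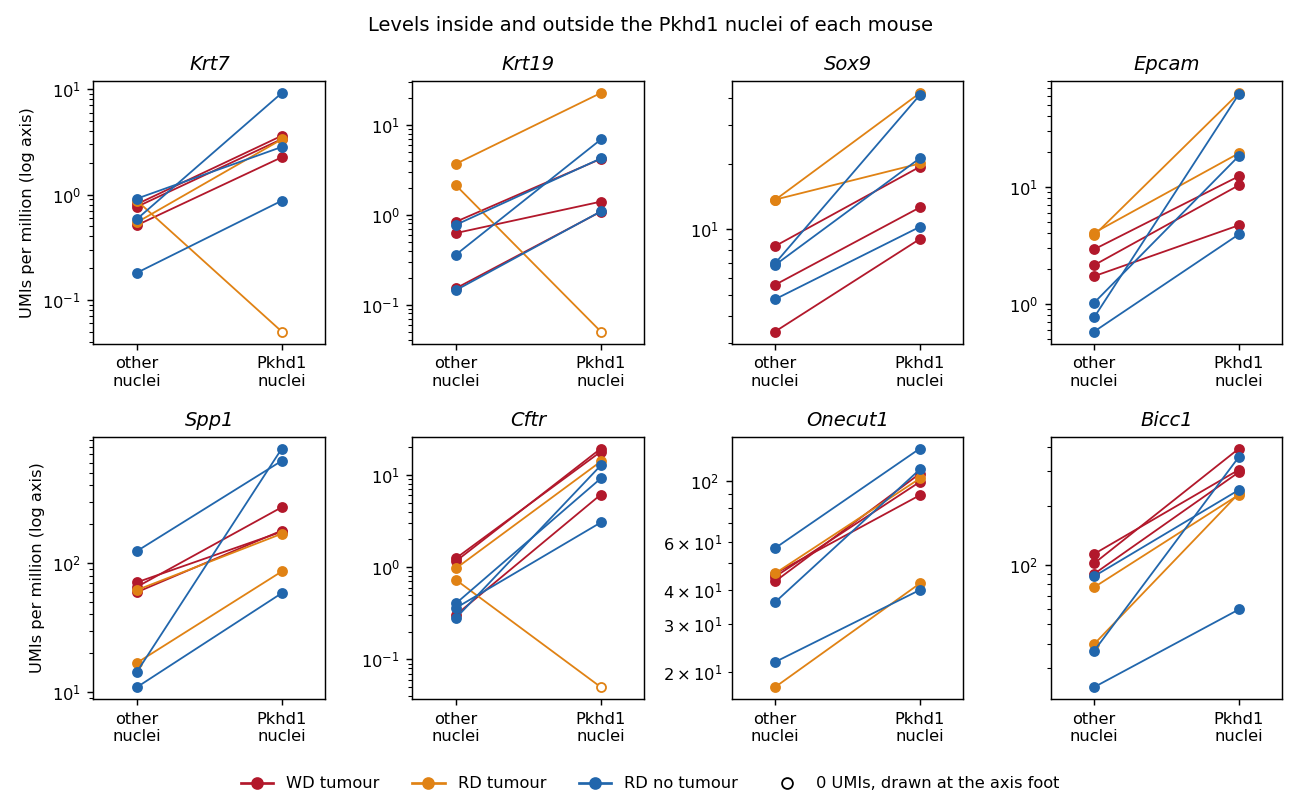
CPM (log axis) of 8 genes in the other nuclei and the Pkhd1 nuclei of each mouse; a line joins the 2 sums of 1 mouse, colours give the group, and an open circle at the foot marks 0 UMIs. All lines rise except those of RD tumour 1 for Krt7, Krt19 and Cftr, where 21 nuclei gave no UMI.

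Other duct genes followed the same division. Of 30 duct genes, 26 were tested, 16 were higher in Pkhd1 nuclei and 3 lower, with a median difference of 1.21 against 0.02 over all genes tested. This list includes the 10 cholangiocyte-list genes. The 3 largest differences were those of Sctr, the secretin receptor of cholangiocytes (4.37, SE 0.31), Grhl2, an epithelial transcription factor, and Ehf, an ETS-family epithelial factor (3.88, SE 0.37). The smallest was Aqp1, a water channel of duct and endothelial cells, which fell by 1.04 (SE 0.11, edgeR adjusted p = 4.7e-08). Of 22 Notch and Hippo genes, 17 were tested, 3 were higher and 1 lower, with a median of 0.15. That is 4 of 17 called where 26.3% of all genes were. The higher ones were Wwc1, an upstream regulator of the Hippo kinases (0.80, SE 0.09), and Yap1 and Tead1, the transcriptional co-activator and its DNA-binding partner (0.29 and 0.30, SE 0.08 each), the last pair named after their values were seen. The Notch ligand Jag1 (0.47, SE 0.22, edgeR adjusted p = 0.119) and the YAP target Ccn1 (0.36, SE 0.23, adjusted p = 0.261) did not pass, and a second YAP target, Ccn2, fell by 0.52 (SE 0.10). Of 20 progenitor and ductular reaction genes, 16 were tested, 4 were higher and 5 lower, with a median of -0.04, against the same 26.3% called in either direction and 9.58% called higher over all genes. Cdh6, a cadherin of renal and biliary epithelium (3.17, SE 0.30), Vtcn1, a B7-family surface protein (1.37, SE 0.22), and Tgfb2, a TGF-beta ligand (1.00, SE 0.22), were highest, and Lgals3, a galectin abundant in macrophages, fell by 0.88 (SE 0.13).

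The 10 other genes with the largest Pkhd1-against-other difference among 2834 eligible genes (called, with at least 10 UMIs in the Pkhd1 nuclei of 6 or more of 8 mice) were, in order, Macc1, Kcnma1, Chst9, Nipal2, Ppp2r2b, Anxa13, Grhl2, Lamc3, Mtcl1 and Ehf. Their log2 differences ran from 4.51 (Macc1) to 3.88 (Ehf). Each was higher inside in 7 or 8 of 8 mice. Kcnma1 encodes a large-conductance potassium channel, and Lamc3 a laminin chain. Of the members only Cftr (3.94) lay within this range.

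Outside the Pkhd1 nuclei, Bicc1 was concentrated in nuclei with stellate cell and fibroblast markers. Nuclei with 0 or 1 Pkhd1 UMI were sorted by marker lists (at least 3 UMIs from at least 2 genes of 1 list, more than of any other), which gives sets called by their gate and not cell types. In the stellate/fibroblast gate, Bicc1 stood at 728, 869 and 655 CPM in the Western diet livers, 119 and 328 in the reversed tumour livers, and 810, 341 and 257 in the tumour-free livers. In the macrophage gate it stood at 6.81 to 35.1, in the endothelial gate at 9.72 to 54.6, and in nuclei that passed no gate at 9.71 to 46.6. The stellate/fibroblast gate held a median of 63.6% of the Bicc1 UMIs outside the Pkhd1 nuclei, with RD tumour 1 lowest at 10.4% and RD no tumour 1 highest at 79.8%. The few nuclei of the mesothelial gate (0 to 19 per mouse) gave Bicc1 values up to 1072.

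Spp1 outside differed more between mice than between the 4 large sets of nuclei of a mouse. In RD no tumour 1 it stood at 116 CPM in the stellate/fibroblast gate, 90.6 in the endothelial, 95.2 in the macrophage and 143 in nuclei without a gate. In RD no tumour 3 the same 4 sets gave 21.9, 8.47, 9.26 and 11.2. In both mice the macrophage gate lay just above the endothelial gate and below the other sets, although macrophages are a known source of Spp1. Within that gate, Spp1 was higher in nuclei with a UMI of Trem2 or Gpnmb, genes of lipid-associated macrophages, than in the rest in 5 of 8 mice, with 145 against 90.5 in RD no tumour 1 and 26.9 against 39.1 in WD tumour 2 as examples in both directions.

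Among the 4 gates of macrophages, endothelial, stellate and T/NK cells, Epcam was highest in the T/NK gate in 7 of 8 mice, WD tumour 3 excepted (10.3, 9.63 and 2.82 CPM in the Western diet livers, 31.5 and 6.72 in the reversed tumour livers, 4.99, 6.49 and 3.96 in the tumour-free livers), but the gate held only 16 Epcam UMIs in 1202 nuclei. Nuclei without a gate held a median of 62.8% of the Epcam, 67.2% of the Sox9 and 71.0% of the Onecut1 UMIs found outside. Sox9 in the reversed tumour livers was 18.4 and 15.6 in the stellate/fibroblast gate, 11.4 and 11.7 in the endothelial, 13.1 and 9.35 in the macrophage and 14.2 and 15.9 in nuclei without a gate. Its level in these 2 mice was thus of similar size in all 4 large sets.

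**Figure D3:**
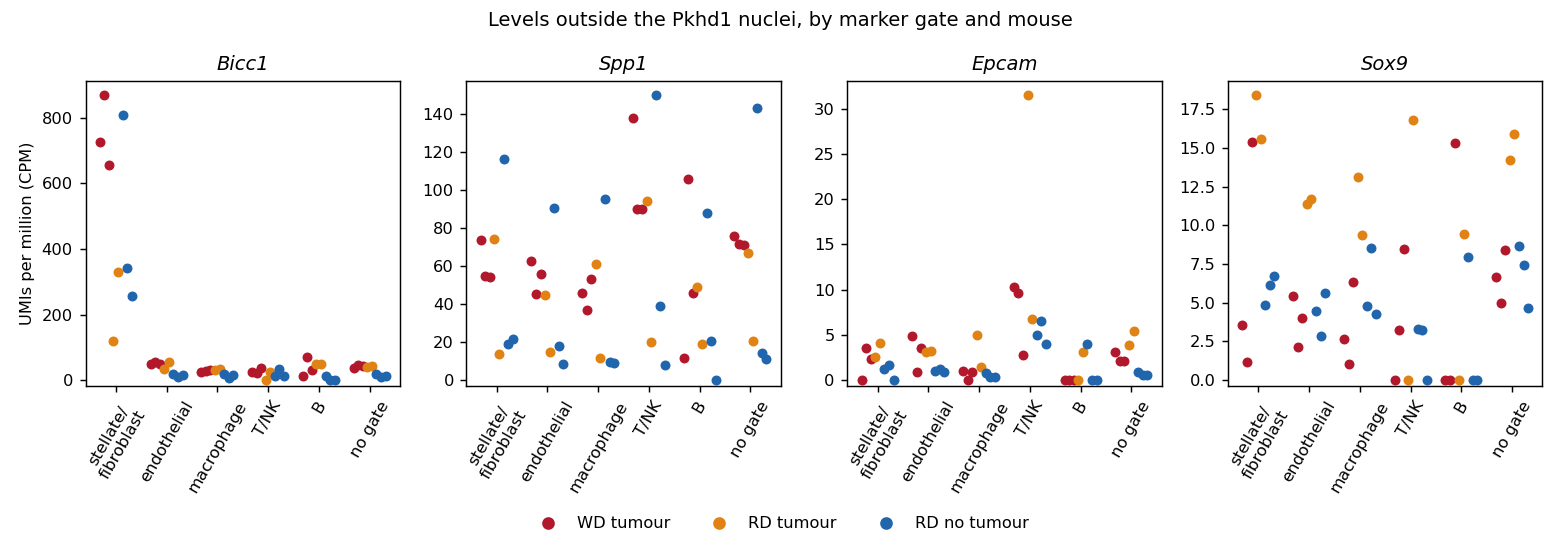
CPM of Bicc1, Spp1, Epcam and Sox9 in nuclei with 0 or 1 Pkhd1 UMI, by marker gate; each point is 1 mouse, coloured by group, and the axes differ between genes. Bicc1 reached 119 to 869 in the stellate/fibroblast gate and stayed at or below 70.7 in the other sets shown, while Spp1 in RD no tumour 1 stood at 87.9 or more in every gate and in RD no tumour 3 at 21.9 or less.

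In whole libraries, Pkhd1, Cftr and Bicc1 had their highest values on Western diet. In such sums, fewer cells of a type and less RNA per cell cannot be told apart. Pkhd1 stood at 178, 80.5 and 141 CPM in the Western diet livers, 10.1 and 32.7 in the reversed tumour livers, and 31.2, 25.5 and 85.8 in the tumour-free livers. RD no tumour 3 thus overlapped the Western diet range and the other 4 reversed livers did not. Bicc1 stood at 132, 138 and 139 in the Western diet livers, 40.0 and 85.6 in the reversed tumour livers, and 91.6, 42.8 and 29.1 in the tumour-free livers. The 3 Western diet livers lay above all reversed livers and close together, at 136 ± 3.86 (SD, n = 3). The summed stellate/fibroblast list, the gate in which most Bicc1 outside was found, stood at 477 to 591 in the Western diet livers, 370 to 691 in the reversed tumour livers and 249 to 597 in the tumour-free livers, and its part in the Bicc1 values was not tested. Cftr stood at 4.57, 1.02 and 3.46 in the Western diet livers, 0.728 and 1.69 in the reversed tumour livers and 0.583, 0.574 and 0.745 in the tumour-free livers, so WD tumour 2 lay within the RD tumour range.

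Krt19 and Sox9 had their highest values in the 2 reversed livers with tumours, and Epcam was lowest in the tumour-free livers. Krt19 stood at 2.12 and 4.74 CPM in the reversed tumour livers, 0.780, 0.267 and 1.26 in the Western diet livers and 0.858, 0.485 and 0.279 in the tumour-free livers. Sox9 stood at 13.7 and 14.0 in the reversed tumour livers, 6.96, 4.09 and 9.76 in the Western diet livers and 7.20, 7.64 and 5.56 in the tumour-free livers. In both genes the RD tumour pair lay above the 6 other mice, whose groups overlapped each other. Epcam stood at 4.79, 2.09 and 3.17 in the Western diet livers, 3.93 and 4.89 in the reversed tumour livers and 1.44, 1.94 and 1.06 in the tumour-free livers. The tumour-free group lay below the 5 tumour-bearing livers, with RD no tumour 2 and WD tumour 2 close neighbours.

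The groups overlapped in Spp1, Onecut1 and Krt7. Spp1 was lowest at 17.7 (RD no tumour 3) and highest at 136 (RD no tumour 1), both tumour-free livers, with 28.9 in the other one and 91.7, 74.2 and 91.4 CPM in the Western diet livers and 62.0 and 20.7 in the reversed tumour livers. Onecut1 was 54.4, 51.4 and 50.9 in the Western diet livers, within the range of RD no tumour (58.6, 37.5 and 24.4), and 17.7 and 49.0 in the reversed tumour livers. Krt7 ran from 0.279 to 1.28 over all mice, on 9 to 30 UMIs each, and its groups overlapped.

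**Figure D4:**
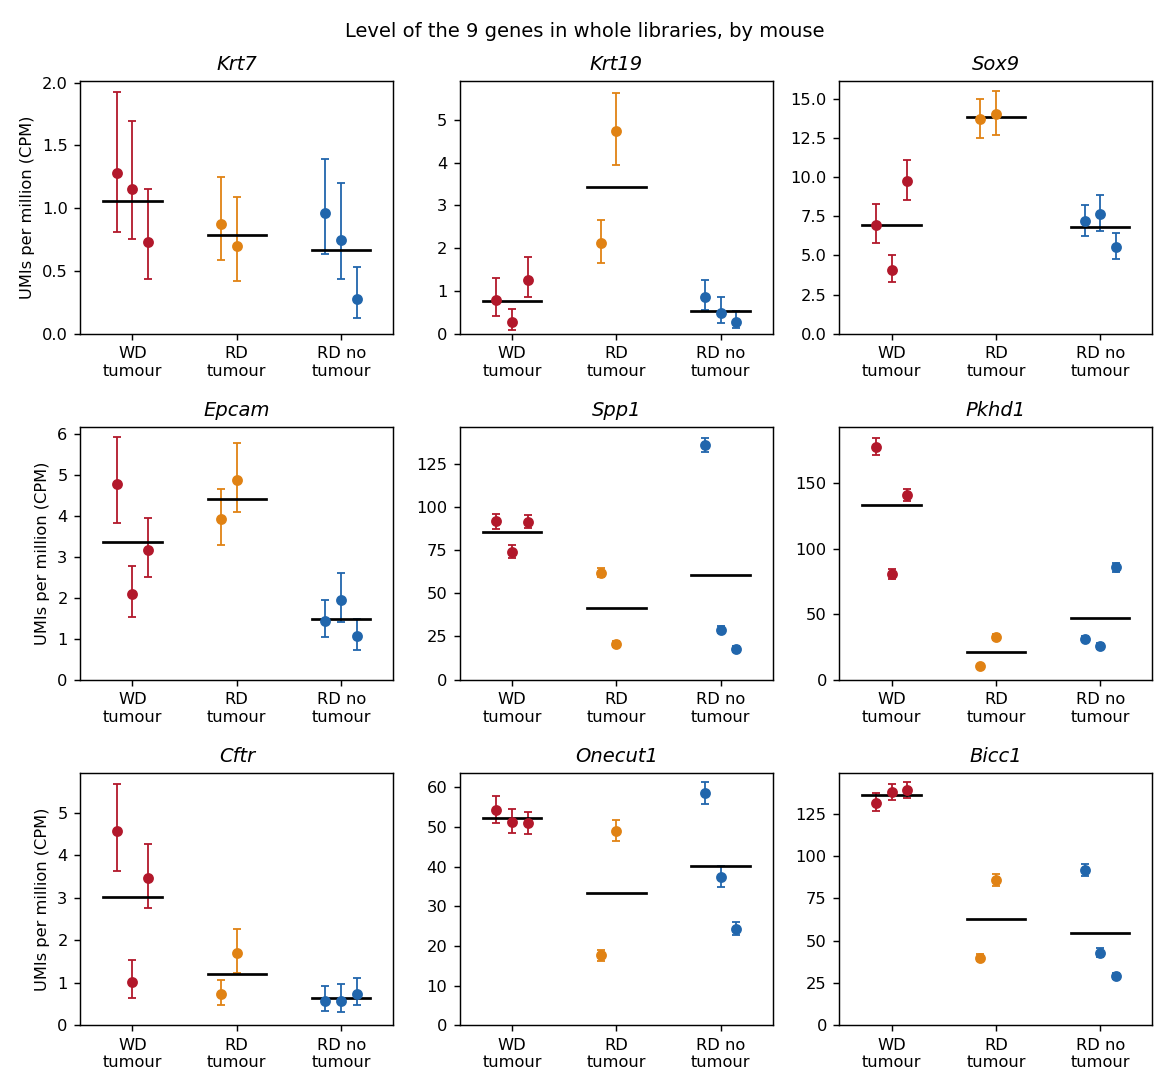
CPM of the 9 genes in each whole library, with exact 95% Poisson intervals of the count (counting error only) and black bars at the group means. Krt19 and Sox9 are highest in the reversed tumour livers (2.12 and 4.74, and 13.7 and 14.0), Bicc1 in the Western diet livers (132 to 139), and Epcam is lowest in the tumour-free livers (1.06 to 1.94).

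None of these group differences passed the test over all genes. How many of all genes keep the groups apart without overlap was not counted, so such orderings are described and given no weight. By edgeR's quasi-likelihood F test with all 3 groups in the model, 0 of 19087 genes (0%) were called in any of the 3 contrasts of whole libraries, and the smallest adjusted p was 0.589. At an unadjusted p under 0.05, 524 genes (2.75%) differed between WD tumour and RD no tumour, 1277 (6.69%) between RD tumour and RD no tumour and 1441 (7.55%) between WD tumour and RD tumour. DESeq2 called 36, 64 and 109 genes at an adjusted p under 0.05, none of them a member. With groups of 2 and 3 the test can miss sizeable differences.

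Between WD tumour and RD no tumour, the log2 differences were 2.21 for Cftr (SE 0.65), 1.42 for Pkhd1 (SE 0.63), 1.31 for Bicc1 (SE 0.42) and 1.15 for Epcam (SE 0.45), and the other 5 lay between -0.0013 (Sox9) and 0.65 (Krt7). Leaving out 1 mouse moved Pkhd1 between 1.11 (without WD tumour 1) and 2.25 (without RD no tumour 3) and Epcam between 0.75 (without WD tumour 1) and 1.42 (without WD tumour 2). Cftr, Bicc1 and Epcam, 3 of the 9, were under an unadjusted 0.05, where 2.75% of all genes were. Between RD tumour and RD no tumour, Krt19 differed by 2.60 (SE 0.73), Epcam by 1.51 (SE 0.49) and Sox9 by 0.97 (SE 0.40). These 3 of 9 were under an unadjusted 0.05, with an edgeR adjusted p = 0.612 each. Leaving out RD tumour 1 gave 3.03 for Krt19, and leaving out RD tumour 2 gave 1.96. Between WD tumour and RD tumour, Pkhd1 differed by 2.70 (SE 0.78), Bicc1 by 1.16 (SE 0.48), Krt19 by -2.10 (SE 0.73) and Sox9 by -0.97 (SE 0.40). These 4 of 9, 2 in each direction, were under an unadjusted 0.05, with an edgeR adjusted p = 0.589 each. These contrasts share groups, so they are not independent.

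Pkhd1 and Onecut1 were called between WD tumour and RD tumour when RD tumour 2 was left out (3.72 with adjusted p = 0.0451 and 1.55 with adjusted p = 0.0477 by edgeR). RD tumour 1 then stands alone for its group, its spread is assumed to be that of the other groups, and 4439 genes in all were called. In RD tumour 2, Krt19, Sox9 and Epcam were no higher in the 526 nuclei with 3 or more pancreatic UMIs than in those with 0. In that library Krt19 stood at 5.02 CPM in nuclei with 0 pancreatic UMIs, 5.19 with 1 or 2 and 3.40 with 3 or more. Sox9 stood at 14.6, 12.7 and 14.5 and Epcam at 5.54, 5.19 and 2.86 in the same sets. With these 526 nuclei removed, an alternative chosen after the data were seen, the differences from RD no tumour were 2.68 for Krt19, 0.97 for Sox9 and 1.60 for Epcam. The list behind this split holds acinar genes only. Pancreatic nuclei of other kinds, such as duct nuclei, would not be set apart by it, and their part was not tested.

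Once the Pkhd1 nuclei were set aside, the Epcam levels of the 3 groups separated. In the other nuclei it stood at 1.02, 0.765 and 0.579 CPM in the tumour-free livers, 2.92, 1.72 and 2.14 in the Western diet livers, and 3.85 and 4.04 in the reversed tumour livers. The 3 groups did not overlap, with 16 to 132 UMIs behind each value, and how many of all genes do the same was not counted. The log2 difference from RD no tumour was 2.27 for RD tumour (SE 0.44, edgeR adjusted p = 0.618) and 1.51 for WD tumour (SE 0.41, edgeR adjusted p = 1.00), both under an unadjusted 0.05. WD tumour differed from RD tumour by -0.76 (SE 0.43, edgeR adjusted p = 0.622). The 10 cholangiocyte-list genes together were also lowest in the other nuclei of the tumour-free livers, at 56.8 to 85.4 CPM. They stood at 97.3 to 106 in the Western diet livers and 90.3 to 124 in the reversed tumour livers. The low tumour-free level is thus not particular to Epcam, and the part of duct cells with 0 or 1 Pkhd1 UMI was not tested. Of the 8 members tested in these nuclei, 2, 3 and 2 were under an unadjusted 0.05 in the contrasts of WD tumour with RD no tumour, RD tumour with RD no tumour and WD tumour with RD tumour. edgeR called 0 of 18921 genes in the other nuclei (0%), with 482 (2.55%), 1250 (6.61%) and 1340 (7.08%) under an unadjusted 0.05 in the same order, and DESeq2 called 33, 67 and 83. Epcam between RD tumour and RD no tumour was among the calls of DESeq2 (2.30, adjusted p = 0.000715) and of edgeR without RD tumour 2 (2.26, adjusted p = 0.0234), where 4454 genes were called. Krt19 and Sox9 outside showed the whole-library pattern: Krt19 was 2.13 and 3.69 in the reversed tumour livers against at most 0.837 elsewhere, and Sox9 13.6 and 13.7 against at most 8.37.

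Inside the Pkhd1 nuclei no gene was called in any contrast by edgeR (0 of 13634, 0%), with 368 (2.70%), 554 (4.06%) and 595 (4.36%) under an unadjusted 0.05 in the same order of contrasts. DESeq2 called 7, 5 and 9 genes. Of the 7 members tested inside, 0, 2 and 1 were under an unadjusted 0.05. The largest member difference was Krt19 between WD tumour and RD tumour (-2.87, SE 0.89, edgeR adjusted p = 0.969). It rests on the 34 UMIs of RD tumour 2, and without that library the value was 5.27, set by a count of 0 in RD tumour 1. With the nuclei holding 3 or more UMIs of the acinar list removed, it was -3.61. Spp1 between RD tumour and RD no tumour was -2.41 (SE 0.92, edgeR adjusted p = 0.966). Cftr and Bicc1, which were high in whole libraries on Western diet, differed inside by 0.99 (SE 0.68) and 0.59 (SE 0.52) between WD tumour and RD no tumour, and Epcam by -1.40 (SE 0.83), a sign opposite to that outside; whether the inside and outside differences differ was not tested.

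**Figure D5:**
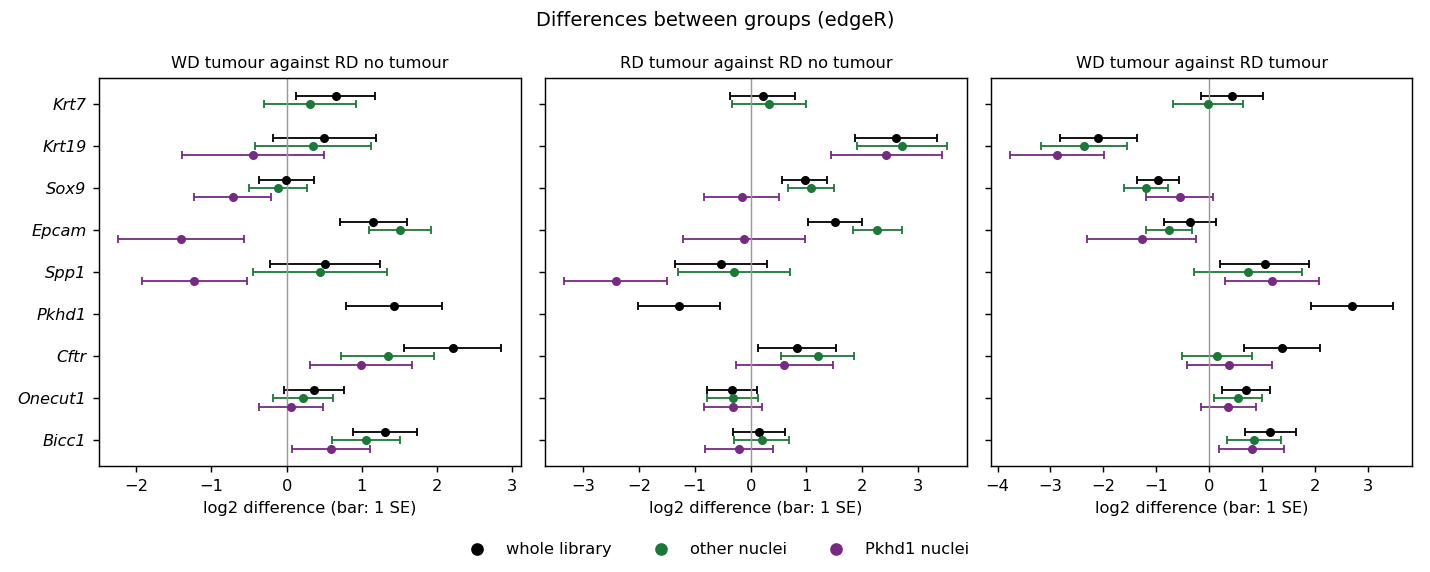
Log2 differences of the 9 genes between groups (points, with bars of 1 SE) from the edgeR fits of whole libraries, other nuclei and Pkhd1 nuclei; Pkhd1 was fitted in whole libraries only, and Krt7 did not pass the filter inside. In whole libraries the largest values are Pkhd1 between WD tumour and RD tumour (2.70), Krt19 between RD tumour and RD no tumour (2.60) and Cftr between WD tumour and RD no tumour (2.21).

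The wider lists gave no gene called by edgeR in any group contrast either. In whole libraries, 10 of 29 tested duct genes were under an unadjusted 0.05 between WD tumour and RD no tumour and 7 of 29 between RD tumour and RD no tumour, with median differences of 0.79 and 0.50 against -0.01 and 0.00 over all genes. Over all genes, 2.75% and 6.69% were under that level in these 2 contrasts. Of the 22 Notch and Hippo genes, 1 and 4 were under that level (medians 0.36 and 0.17), and of the 19 tested progenitor and ductular reaction genes, 3 and 5 (medians 0.39 and 0.65). Inside the Pkhd1 nuclei the duct gene medians were 0.03 for both contrasts, with 0 and 2 of 26 under an unadjusted 0.05, where 2.70% and 4.06% of all genes were. In the other nuclei they were 0.64 for both contrasts, with 6 and 7 of 28 under that level, where 2.55% and 6.61% of all genes were. In the other nuclei 24 and 23 of the 28 duct genes had a positive difference, none of them called by edgeR. Inside the Pkhd1 nuclei 16 and 13 of 26 did.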

How the data were processed

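Liver nuclei of 8 mice were measured by droplet single-nucleus RNA-seq (10x Chromium 3′ v3.1), 1 library per mouse. The deposited values are raw UMI counts per gene and barcode, which the authors made with Cell Ranger 7.0.0 on mm10, per the submitters' processing notes; counting options are not given in the sources used here. Barcodes with at least 300 genes were kept as nuclei and no doublets were removed, except in an alternative using Scrublet in scanpy 1.11.5.

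Counts were summed per mouse over all nuclei, over nuclei with at least 2 Pkhd1 UMIs, and over the others. Fits that used Pkhd1 nuclei left out mice with under 20 of them. This removed RD tumour 1 with at least 3 Pkhd1 UMIs (6 nuclei), with duct markers (1) and with doublets removed (19). For the sums, the quasi-likelihood test of edgeR 4.0.16 was used (TMM scaling, low-count filter, Benjamini-Hochberg adjustment over all genes, threshold 0.05) in R 4.3.3. The model held 3 groups, or a library term for Pkhd1 nuclei against others. In simulated counts of WD tumour against RD no tumour, 31% of 4-fold changes were recovered in whole libraries and 70% in Pkhd1 nuclei. Of the genes called, 6.11% and 12.4% were false, above the 5% aimed at. For Pkhd1 nuclei against others, 100% were recovered and 0.498% were false. Shares of nuclei were tested by exact permutation with scipy 1.17.1. Each sample is labelled as 1 mouse and p-values measure the spread between these mice; intervals cover counting error only. Alternatives were DESeq2 1.42.0, RLE size factors, no filter, other minimums of Pkhd1 UMIs and genes, a mitochondrial limit of 5%, thinning to 500 UMIs, doublet removal, a replicate block, only the 2 groups compared, and leaving out each mouse.

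The members and gene lists were chosen with earlier results of these data known. Named genes were the 9 members, per list the 3 largest and the smallest difference of Pkhd1 against other nuclei, and the 10 genes with the largest such difference. Gene positions are from GENCODE M21, where 32158 of 32285 gene identifiers matched. Some genes of the lists and their results are not reported here.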

Additional observations from a re-analysis of the deposited data

How the results depend on the processing

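The 7 tested members kept a higher level in Pkhd1 nuclei under each alternative run for them (Cftr and Krt19 have no value with at least 500 genes), and they stayed below an adjusted p of 0.05 except for the 3 named above without the library term. Genes called there numbered 7521 with at least 1 Pkhd1 UMI, 2431 with at least 3, 157 with no replicate block (here the library term), 2258 with duct markers (an alternative chosen after seeing the data) and 3144 to 4348 with 1 mouse left out. Between groups, DESeq2 called 36, 64 and 109 genes in whole libraries, 7, 5 and 9 inside and 33, 67 and 83 outside, in the order used above. In Pkhd1 nuclei between WD tumour and RD tumour, 11 genes were called with no filter and 1 with at least 1 Pkhd1 UMI. With 1 mouse left out, edgeR called 0 to 4569 (RD tumour against RD no tumour) and 0 to 4439 genes (WD tumour against RD tumour) in whole libraries, 0 to 4454 and 0 to 4153 outside, and 0 to 2 (WD tumour against RD no tumour) and 0 to 1 (RD tumour against RD no tumour) inside. The highest counts in whole libraries and outside came without RD tumour 2 (without RD tumour 1 there were 11, and outside 9 and 11), and those inside without RD no tumour 1; the cause was not tested.

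The tumour-bearing against tumour-free difference in the share of Pkhd1 nuclei was 0.045 with at least 1 UMI, 0.066 with at least 500 genes, 0.28 with at most 5% mitochondrial UMIs, 0.23 after thinning (1.55 also without RD tumour 1, and 1.42 with duct markers and without it, both chosen after seeing the data) and -0.57 to 0.99 with 1 mouse left out (0.99 without RD tumour 1, 0.01 without RD tumour 2, 0.50 without RD no tumour 3). In whole libraries, Sox9 between WD tumour and RD no tumour was 0.0044 with at least 500 genes, 0.062 with doublets removed and -0.33 to 0.29 with 1 mouse left out, and Krt19 -0.053 (without WD tumour 3) to 0.94. In the same contrast Spp1 was 0.092 (without RD no tumour 3), 0.20 (without RD no tumour 2) and 1.80 (without RD no tumour 1), Onecut1 0.12 to 0.67 and Krt7 0.29 to 0.97. The Western diet against reversed difference in the share of Pkhd1 nuclei was 1.57 (without RD tumour 1) to 2.94 (without RD no tumour 3). Between RD tumour and RD no tumour, leaving out 1 mouse gave -1.62 to 0.76 for Spp1, -1.19 to 0.19 for Onecut1, -0.44 to 0.68 for Bicc1 and -0.10 to 0.54 for Krt7. Krt19 inside was -5.77 to 2.98 in that contrast and -3.66 to 5.27 between WD tumour and RD tumour, with -5.77 and 5.27 both from leaving out RD tumour 2.

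Whether replicate numbers pair the mice could not be settled. Deviations from the group mean correlated at -0.53 to 0.44 between same-numbered mice and at -0.53 to 0.65 between differently numbered mice. Within groups of 2 or 3 such deviations offset each other, so the correlations cannot show whether the numbers mark pairs. With the number as a replicate block, 0 genes were called in any group contrast, and Krt7 between RD tumour and RD no tumour was -0.027. Krt7, Krt19 and Cftr are limited by depth, with at most 129 UMIs per mouse.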
